A study of Mus musculus with 6 samples.

Results

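The mitochondrial ribosomal protein genes described here carry the symbols Mrpl or Mrps followed by a number alone, and each had at least 60 raw counts summed over the 6 libraries. The symbols of 74 of the 54146 genes in the count files matched, and 73 of these reached the minimum, 47 Mrpl genes and 26 Mrps genes. The one left out was Mrpl53, listed at 0 counts in all 6 libraries. In GENCODE release M21 88.0% of its exon bases are shared with Gm42688 on the same strand. All 73 genes passed the filter on low counts and were tested.

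Poly A+ RNA of whole kidneys was sequenced in 3 KspCre Tfam f/f-labelled libraries and 3 Tfam f/f-labelled libraries. The mice were of strain B6C3F1/J and 12 weeks old (postnatal day 84), and both groups carry the floxed Tfam gene. The Cre transgene of the first group is driven by the promoter of Ksp-cadherin, a protein of kidney tubule epithelium, so glomerular, vascular and immune cells of the same organ are not its targets. Tfam encodes the protein that packages mitochondrial DNA and helps to start its transcription, and the comparison asks how the kidney transcriptome differs with the Cre transgene.

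Mitochondria keep their own ribosome, which translates the respiratory chain subunits encoded by mitochondrial DNA. Its ribosomal RNAs are transcribed from mitochondrial DNA, whereas all of its proteins are encoded in the nucleus, made in the cytosol and imported. Some of these proteins descend from bacterial ribosomal proteins, and others were added to the ribosome after mitochondria arose. The kidney, whose proximal tubule reabsorbs solutes by oxidative metabolism, is rich in mitochondria.

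The targeted gene went against the labels. Tfam stood at 63.1, 63.5 and 61.4 normalized CPM (gene counts scaled by library size) in the KspCre Tfam f/f-labelled libraries, and at 30.3, 33.6 and 23.2 in the Tfam f/f-labelled libraries, with a log2 fold change of 1.11 (edgeR adjusted p = 0.00107). Every direction below is therefore that of the labels as deposited, and which libraries lost Tfam was not tested. Total gene counts were 30348281 to 48899266 in the KspCre Tfam f/f-labelled libraries and 19024208 to 34821537 in the Tfam f/f-labelled libraries. Levels of marker genes differed too, in lists of which no gene was at 0 in any library. Of 16 proximal tubule markers 14 were higher in the KspCre Tfam f/f-labelled libraries, with summed levels of 52955 to 55734 CPM against 4397 to 18100 CPM in the Tfam f/f-labelled libraries. Of 14 markers of other kidney segments and cells 8 were higher and 1 lower. Of 15 macrophage markers 12 were lower (summed 179 to 204 CPM under the KspCre Tfam f/f label against 262 to 754 CPM under the Tfam f/f label), and 11 of 12 proliferation genes were lower (130 to 143 CPM under the KspCre Tfam f/f label against 254 to 343 CPM under the Tfam f/f label). The part of these shifts in the results below was not tested, and in whole-kidney RNA fewer cells of a type and less RNA per cell cannot be told apart.

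The mitochondrial ribosomal protein genes moved little and in both directions. In edgeR's quasi-likelihood test, with Benjamini-Hochberg adjustment over all 17308 genes tested, 15 of the 73 genes were higher in the KspCre Tfam f/f-labelled libraries (adjusted p under 0.05), which is 20.5% of them beside 21.3% of all genes. Another 8 were lower, 10.96% of them beside 24.9% of all genes. In either direction 31.5% of these genes were called, beside 46.2% of all genes. A gene not called is not shown to be unchanged, since with 3 libraries a group changes of 1.5-fold can be missed. The family's changes were small: the median absolute log2 fold change was 0.23, beside 0.47 over all genes, and 63 of the 73 genes (86.3%) lay within 0.5 of zero on the log2 scale, beside 52.1% of all genes. A call with a fold of at least 1.5 was made for 6 genes, 8.22% of them beside 34.6% of all genes. None of the 73 was called with a fold of 2 or more, whereas 22.0% of all genes were. With 1 library left out the counts of calls ran from 4 (without replicate 2 labelled KspCre Tfam f/f) to 24 (without replicate 1 labelled Tfam f/f) higher, and from 2 (without replicate 1 or 3 labelled KspCre Tfam f/f) to 11 (without replicate 2 labelled Tfam f/f) lower. The shares of all genes above belong to the fit with all 6 libraries. Whether these ranges are particular to the family was not tested. The log2 fold changes ran from -0.998 for Mrpl23 to 0.88 for Mrpl50.

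**Figure D1:**
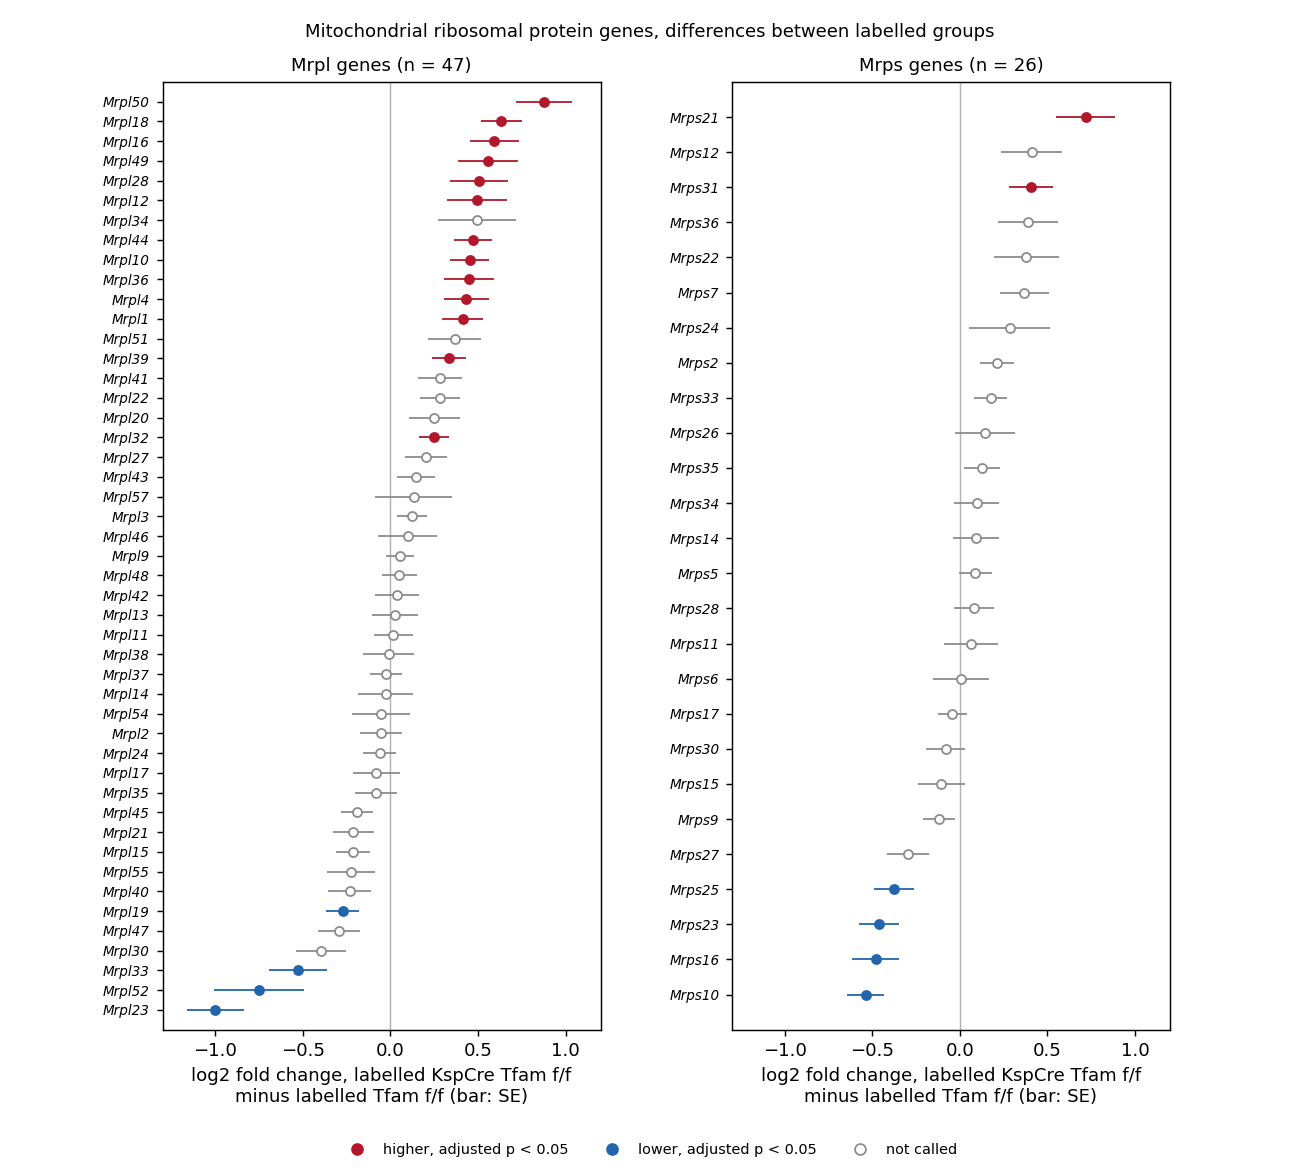
Log2 fold change (KspCre Tfam f/f-labelled minus Tfam f/f-labelled libraries, edgeR, TMM scaling) of the 47 Mrpl genes on the left and the 26 Mrps genes on the right, with bars of 1 standard error. Red points are the 15 genes called higher, blue points the 8 called lower and open points the 50 not called; most values lie within 0.5 of zero, and 4 of the red points (Mrpl1, Mrpl39, Mrps31 and Mrpl32) are below zero when libraries are scaled by total counts.

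The split between directions depends on whether the libraries were scaled by TMM factors or by total counts alone. With DESeq2's median-ratio size factors in place of TMM factors, 21 of the 23 calls stood. With TMM factors the median log2 fold change was 0.09 over the 73 genes and -0.03 over all genes tested. Scaling by total counts alone moved the median of all genes by -0.43, to -0.46, and that of the 73 genes to -0.33. Measured from the median of all genes, the 73 genes stood at 0.12 under both scalings. With total counts 1 of the 73 genes (1.37%) was called higher, beside 9.71% of all genes, and 38 (52.1%) were called lower, beside 49.2% of all genes. Of the 15 genes called higher with TMM factors, 11 kept a positive sign with total counts, and Mrpl1, Mrpl39, Mrps31 and Mrpl32 became negative, while all 15 stayed above that scaling's median of all genes. Of these 15 only Mrpl50 was still called higher. The 8 genes called lower were all called lower under both scalings.

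Promoters are shown for 6 of the called genes, because they let the reader compare the genes at both ends of the response with the called genes whose promoters hold the most matches to known motifs. The letters are from RefSeq's promoter table (GRCm38.p6), cover 250 bases before to 50 bases after the start listed there and run 5′ to 3′ on the gene's own strand. That start can differ from the start of the gene in GENCODE. The Mrpl36 window begins at 73330759 and the GENCODE gene at 73328513, and the Mrpl23 window begins at 142532782 and the gene at 142532686. Capitals mark exact matches, on either strand, to CGCATGCG (a palindrome bound by NRF1), CCGGAAG (a core bound by ETS factors such as GABPA), AAGATGGC (a core bound by YY1) or CACGTG (an E-box, bound by MYC among others). Mrpl50 (chr4:49521034-49521333, minus strand) and Mrpl23 (chr7:142532782-142533081, plus strand) have the smallest p in each direction.
Mrpl50: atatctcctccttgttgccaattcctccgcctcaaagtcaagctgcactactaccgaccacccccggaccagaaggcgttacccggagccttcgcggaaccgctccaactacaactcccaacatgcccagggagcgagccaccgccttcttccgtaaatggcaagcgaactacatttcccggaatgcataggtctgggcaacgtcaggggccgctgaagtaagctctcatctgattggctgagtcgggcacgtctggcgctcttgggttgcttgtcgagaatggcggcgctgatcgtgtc
Mrpl23: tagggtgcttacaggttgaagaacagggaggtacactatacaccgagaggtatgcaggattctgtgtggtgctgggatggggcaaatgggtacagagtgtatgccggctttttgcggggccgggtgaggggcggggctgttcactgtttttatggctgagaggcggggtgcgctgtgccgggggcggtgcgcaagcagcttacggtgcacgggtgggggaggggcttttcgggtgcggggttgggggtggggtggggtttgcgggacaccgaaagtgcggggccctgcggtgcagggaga
Neither window holds any of the 4 motifs. The other 4 promoters are those of all called genes with at least 2 matches. Mrpl36 (chr13:73330759-73331058, plus strand) and Mrpl32 (chr13:14612988-14613287, minus strand) were called higher, and Mrps16 (chr14:20393441-20393740, minus strand, the first of 2 entries) and Mrpl52 (chr14:54426659-54426958, plus strand) were called lower.
Mrpl36: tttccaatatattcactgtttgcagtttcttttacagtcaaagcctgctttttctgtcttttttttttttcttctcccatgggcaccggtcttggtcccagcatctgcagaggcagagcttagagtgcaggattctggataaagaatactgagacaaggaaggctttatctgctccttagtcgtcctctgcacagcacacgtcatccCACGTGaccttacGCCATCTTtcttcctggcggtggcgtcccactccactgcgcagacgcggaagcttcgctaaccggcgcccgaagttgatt
Mrpl32: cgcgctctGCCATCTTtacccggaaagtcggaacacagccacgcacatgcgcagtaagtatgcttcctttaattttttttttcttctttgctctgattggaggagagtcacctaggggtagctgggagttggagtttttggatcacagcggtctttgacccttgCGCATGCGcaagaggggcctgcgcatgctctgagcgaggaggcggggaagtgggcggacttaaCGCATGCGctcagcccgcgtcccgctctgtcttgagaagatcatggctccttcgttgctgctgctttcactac
Mrps16: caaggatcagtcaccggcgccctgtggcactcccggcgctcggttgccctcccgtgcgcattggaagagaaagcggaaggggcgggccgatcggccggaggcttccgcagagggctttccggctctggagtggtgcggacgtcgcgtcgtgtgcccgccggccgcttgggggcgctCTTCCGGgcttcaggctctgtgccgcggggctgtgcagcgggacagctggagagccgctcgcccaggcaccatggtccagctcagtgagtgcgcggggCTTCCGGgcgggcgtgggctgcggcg
Mrpl52: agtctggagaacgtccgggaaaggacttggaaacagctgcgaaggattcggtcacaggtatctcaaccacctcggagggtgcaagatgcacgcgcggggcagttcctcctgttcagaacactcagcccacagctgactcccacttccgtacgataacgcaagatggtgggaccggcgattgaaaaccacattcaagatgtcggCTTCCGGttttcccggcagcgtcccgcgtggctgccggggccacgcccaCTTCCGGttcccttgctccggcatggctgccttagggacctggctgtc
The Mrpl36 window holds an E-box followed by a YY1 core, and the Mrpl32 window a YY1 core far upstream and 2 NRF1 palindromes. The Mrps16 and Mrpl52 windows hold 2 ETS cores each.

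Over the family, 64 of the 73 genes had a promoter in the table, and 35 of them held at least 1 of the 4 motifs. Matches of different motifs did not overlap in any of them. The ETS core was in 21 of the 64 (32.8%), beside 9.93% of the 27025 genes in the table, and in 41.7% of 60 cytosolic ribosomal protein genes. The YY1 core was in 11 (17.2%), beside 3.19% of all genes. The NRF1 palindrome was in 6 (9.38%), beside 2.07% of all genes, and the E-box in 4 (6.25%), beside 8.09%. By call, the ETS core was in 2 of 14 genes called higher, 4 of 7 called lower and 15 of 43 not called. The YY1 core was in 3, 0 and 8 of these genes, the NRF1 palindrome in 3, 0 and 3, and the E-box in 1, 0 and 3, in the same order, and no difference between these classes was tested. A match describes the letters of the window and says nothing of whether a factor binds there.

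The 4 genes called higher with the smallest p kept their call whichever library was left out. Mrpl50 (ENSMUSG00000044018.3, chromosome 4, 49512596 to 49521093 in mm10) encodes a large-subunit protein with no bacterial counterpart. It stood at 112, 109 and 101 CPM in the KspCre Tfam f/f-labelled libraries, and at 61.7, 69.2 and 44.4 CPM in the Tfam f/f-labelled libraries. The groups were far apart, and the mean was 1.84-fold higher (log2 fold change 0.88, SE 0.16, edgeR adjusted p = 0.0047). Mrps21, the counterpart of bacterial S21 in the small subunit, stood at 68.1, 72.7 and 72.2 CPM under the KspCre Tfam f/f label against 52.2, 45.2 and 31.9 CPM in the Tfam f/f-labelled libraries, a log2 fold change of 0.72 (SE 0.17, edgeR adjusted p = 0.0112). The lowest library labelled KspCre Tfam f/f was above the highest of the other group here as well.

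Mrpl18 and Mrpl16 encode large-subunit proteins of bacterial descent, the first in the central protuberance and the second close to where peptide bonds are made. Mrpl18 had 62.0, 64.1 and 60.9 CPM in the KspCre Tfam f/f-labelled libraries, against 42.7, 44.3 and 33.4 CPM in the Tfam f/f-labelled libraries (log2 fold change 0.63, SE 0.12, edgeR adjusted p = 0.00497). Mrpl16 had 49.4, 55.0 and 49.8 CPM under the KspCre Tfam f/f label, against 38.2, 36.8 and 27.0 CPM under the Tfam f/f label (log2 fold change 0.60, SE 0.14, edgeR adjusted p = 0.0114). Neither gene's groups overlapped. With total counts the adjusted p was 0.0156 for Mrpl50, 0.097 for Mrpl18, 0.1 for Mrps21 and 0.229 for Mrpl16, so that only Mrpl50 kept its call. Over all alternatives but the test against a minimum fold of 1.2, the adjusted p of the 4 genes ran from 3.32e-05 (Mrpl50, DESeq2) to 0.229 (Mrpl16). Later ranges over all alternatives leave out that test too. For Mrpl18 10.1% of the exon bases lie opposite Tcp1, so reads there are uncertain, since the strand setting of the counting is not given in the sources used here.

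**Figure D2:**
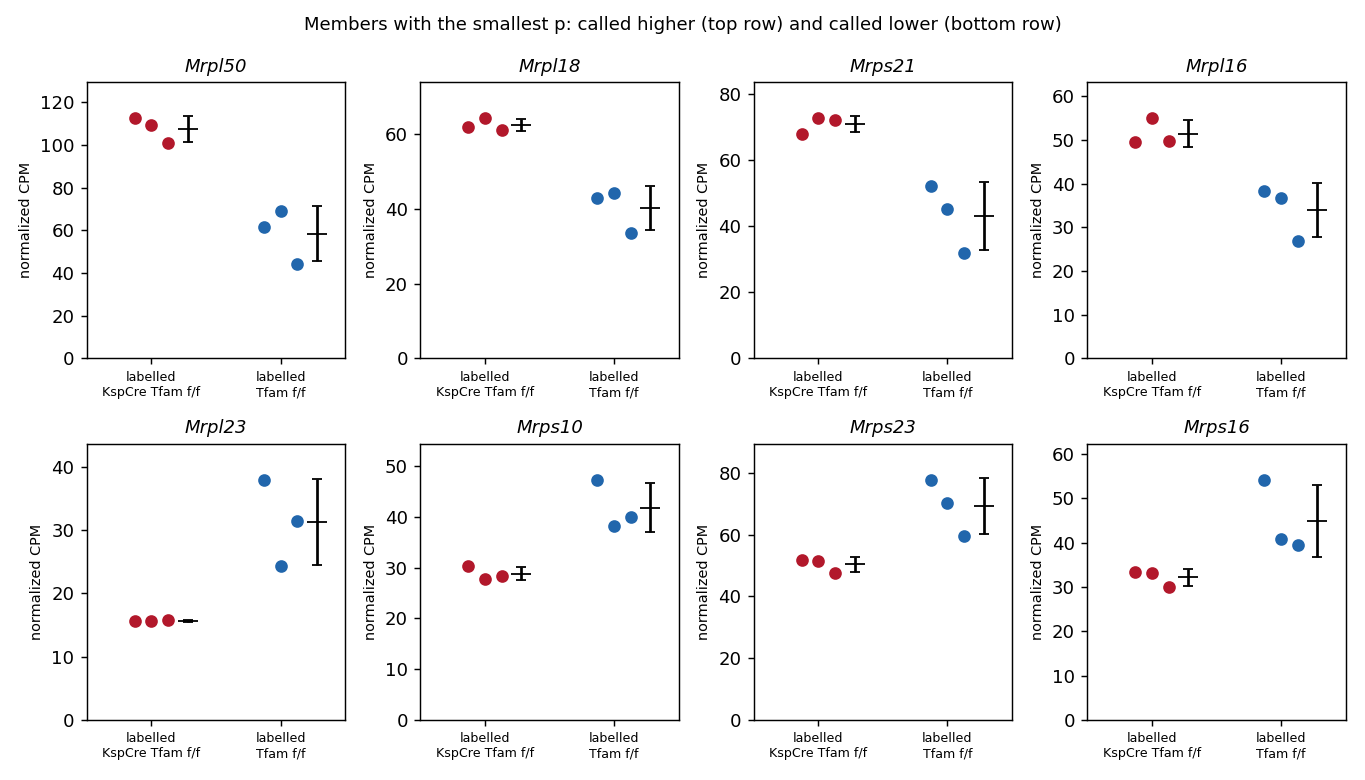
Normalized CPM of each library (points) with the group mean and SD (n = 3) for the 4 genes with the smallest p among those called higher (top row) and lower (bottom row), KspCre Tfam f/f-labelled libraries in red on the left and the Tfam f/f-labelled libraries in blue on the right. The groups do not overlap in any panel, and the blue points are spread more widely than the red.

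A further 6 large-subunit genes complete the first 10 called higher. Mrpl44, whose protein has a fold related to RNase III, had 39.1, 44.0 and 39.8 CPM in the KspCre Tfam f/f-labelled libraries, against 32.1, 30.8 and 25.7 CPM in the Tfam f/f-labelled libraries (log2 fold change 0.47). Mrpl10, at the base of the stalk that receives translation factors, had 77.7, 82.8 and 75.3 CPM under the KspCre Tfam f/f label against 64.6, 57.6 and 50.2 CPM under the Tfam f/f label (log2 fold change 0.45). Both lost their call without replicate 2 labelled KspCre Tfam f/f, where the adjusted p was 0.0542 for Mrpl44 and 0.0613 for Mrpl10. Mrpl1, of the mobile stalk beside the exit site for transfer RNA, had 32.9, 33.3 and 32.5 CPM under the KspCre Tfam f/f label against 21.5, 28.6 and 23.9 CPM under the Tfam f/f label (log2 fold change 0.41). Mrpl39, a protein with no bacterial counterpart that resembles part of a transfer RNA synthetase, had 54.3, 57.4 and 54.5 CPM under the KspCre Tfam f/f label against 48.1, 44.2 and 39.5 CPM under the Tfam f/f label (log2 fold change 0.33). The same order of groups, without overlap, was seen for the remaining pair. Mrpl4, which lines the exit tunnel, had 70.6, 83.6 and 79.4 CPM under the KspCre Tfam f/f label against 65.9, 58.2 and 48.6 CPM under the Tfam f/f label (log2 fold change 0.44). Mrpl49, with no bacterial counterpart, had 49.3, 53.3 and 50.9 CPM under the KspCre Tfam f/f label against 40.0, 39.1 and 25.1 CPM under the Tfam f/f label (log2 fold change 0.56).

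These 6 had edgeR adjusted p of 0.0115 (Mrpl44) to 0.0309 (Mrpl49). The calls of Mrpl39 and Mrpl49 were lost when any 1 library labelled KspCre Tfam f/f was left out (adjusted p = 0.0702 to 0.097 for Mrpl39, and 0.0709 to 0.0932 for Mrpl49). The call of Mrpl4 was lost without replicate 3 (0.0878) or replicate 2 (0.103) of that group, and that of Mrpl1 without any 1 of them or without replicate 1 labelled Tfam f/f (0.0576 to 0.0783). Over all alternatives the adjusted p of the 6 genes ran from 0.00213 to 0.949, both for Mrpl1, the highest with total counts. About 14.1% of the exon bases of Mrpl10, 7.66% of those of Mrpl44 and 4.85% of those of Mrpl49 lie opposite another gene.

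The other 5 genes called higher were Mrpl12, Mrpl28, Mrpl32, Mrpl36 and Mrps31, and all but Mrpl12 are named after their values were seen. Mrpl12, the stalk protein that draws translation factors to the ribosome, was the most abundant of all 73 per kilobase. It had 150, 168 and 159 CPM in the KspCre Tfam f/f-labelled libraries and 138, 113 and 86.7 CPM in the Tfam f/f-labelled libraries, groups that did not overlap but whose nearest libraries were close (log2 fold change 0.50, SE 0.17, edgeR adjusted p = 0.0446). Its call was lost without any 1 library labelled KspCre Tfam f/f or without replicate 2 labelled Tfam f/f (adjusted p = 0.0712 to 0.131, over all alternatives 0.0231 to 0.669). Mrpl28 and Mrpl36 descend from bacterial L28 and L36, Mrps31 has no bacterial counterpart, and the Mrpl32 protein is matured by a protease of the inner membrane. Their log2 fold changes were 0.51, 0.45, 0.41 and 0.25, in the order Mrpl28, Mrpl36, Mrps31 and Mrpl32, with edgeR adjusted p of 0.0328 (Mrps31) to 0.0481 (Mrpl32). Each of these 4 also lost its call without any 1 library labelled KspCre Tfam f/f. Of the libraries labelled Tfam f/f, leaving out replicate 1 ended the calls of Mrps31 and Mrpl32, replicate 2 that of Mrpl36 and replicate 3 those of Mrpl36 and Mrpl32 (adjusted p = 0.0504 to 0.155 in the fits that ended a call). Over all alternatives their adjusted p ran from 0.0152 to 0.931, both for Mrpl36.

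Mrpl23 had the largest change of the family. Mrpl23 (ENSMUSG00000037772.13, chromosome 7, 142532686 to 142540747 in mm10) encodes a large-subunit protein at the mouth of the exit tunnel. It stood at 15.6, 15.6 and 15.8 CPM in the KspCre Tfam f/f-labelled libraries, and at 38.0, 24.3 and 31.5 CPM in the Tfam f/f-labelled libraries. The mean was 2.00-fold lower (15.7 ± 0.0927 CPM under the KspCre Tfam f/f label against 31.3 ± 6.84 CPM under the Tfam f/f label, SD, n = 3 each), and the groups did not overlap (log2 fold change -0.998, SE 0.16, edgeR adjusted p = 0.0028). Mrps10, the counterpart of bacterial S10 in the head of the small subunit, had 30.3, 27.8 and 28.5 CPM under the KspCre Tfam f/f label, against 47.4, 38.3 and 40.0 CPM in the Tfam f/f-labelled libraries (log2 fold change -0.54, SE 0.11, edgeR adjusted p = 0.0061). These were the 2 genes called lower in every fit that left out 1 library, with an adjusted p of at most 0.0167 for Mrpl23 and 0.0361 for Mrps10 over all alternatives.

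The other 6 genes called lower were split between the subunits. Mrps23, a small-subunit protein with no bacterial counterpart, had 51.9, 51.6 and 47.7 CPM in the KspCre Tfam f/f-labelled libraries, against 77.8, 70.4 and 59.7 CPM in the Tfam f/f-labelled libraries (log2 fold change -0.46). Mrps16, of bacterial descent and a known human mitochondrial disease gene, had 33.4, 33.1 and 30.0 CPM under the KspCre Tfam f/f label against 54.2, 40.9 and 39.4 CPM under the Tfam f/f label (log2 fold change -0.48). In both, all 3 KspCre Tfam f/f-labelled libraries were below the other group, but the call was lost without any 1 of them (adjusted p = 0.0518 to 0.0734 for Mrps23, and 0.0651 to 0.0974 for Mrps16). Mrpl52, a large-subunit protein with no bacterial counterpart, had 19.5, 21.7 and 20.2 CPM under the KspCre Tfam f/f label, against 49.9, 23.0 and 30.6 CPM in the Tfam f/f-labelled libraries (log2 fold change -0.75, SE 0.26). The groups did not overlap, but replicate 1 labelled Tfam f/f was far above the other libraries and replicate 2 was close to the KspCre Tfam f/f-labelled libraries. Mrpl33, the counterpart of bacterial L33, had 9.61, 11.5 and 9.16 CPM under the KspCre Tfam f/f label against 15.8, 11.8 and 16.1 CPM under the Tfam f/f label (log2 fold change -0.53), and 3.56% of its exon bases are shared with Gm43809 on the same strand.

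The last pair overlap other genes widely. Mrps25, a small-subunit protein with no bacterial counterpart, had 27.5, 28.6 and 28.2 CPM under the KspCre Tfam f/f label against 42.0, 35.3 and 31.9 CPM in the Tfam f/f-labelled libraries (log2 fold change -0.37), and 69.8% of its exon bases lie opposite Nr2c2. Mrpl19, the counterpart of bacterial L19, had 26.1, 24.4 and 22.7 CPM under the KspCre Tfam f/f label against 29.7, 28.1 and 30.8 CPM under the Tfam f/f label (log2 fold change -0.27), and 36.0% of its exon bases lie opposite Gcfc2. Both are uncertain for that reason. The edgeR adjusted p of the 6 genes ran from 0.0138 (Mrps23) to 0.0477 (Mrpl19). Mrpl52 and Mrps25 lost their call without any 1 library labelled KspCre Tfam f/f or without replicate 1 labelled Tfam f/f (adjusted p = 0.0779 to 0.131 for Mrpl52, and 0.0786 to 0.111 for Mrps25). Mrpl19 did so in those fits and without replicate 3 labelled Tfam f/f (0.082 to 0.204). Mrpl33 did so without replicates 1 or 3 of either group (0.0644 to 0.123). Over all alternatives the adjusted p of the 6 genes ran from 0.00046 (Mrps23, total counts) to 0.204 (Mrpl19).

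The remaining 50 genes were not called. The 3 with the largest changes were Mrpl34, Mrps12 and Mrpl30. Mrpl34, the counterpart of bacterial L34, had 30.0, 34.5 and 32.6 CPM in the KspCre Tfam f/f-labelled libraries, against 31.0, 22.5 and 15.4 CPM in the Tfam f/f-labelled libraries (log2 fold change 0.49, SE 0.22, edgeR adjusted p = 0.106). Mrps12, a protein of the decoding centre, had 27.2, 31.8 and 29.4 CPM under the KspCre Tfam f/f label against 28.6, 19.8 and 18.1 CPM under the Tfam f/f label (log2 fold change 0.41, SE 0.17, edgeR adjusted p = 0.0874). In both genes replicate 1 labelled Tfam f/f lay among the KspCre Tfam f/f-labelled libraries. Mrpl30, the counterpart of bacterial L30, had 56.3, 58.3 and 54.6 CPM under the KspCre Tfam f/f label against 90.8, 62.7 and 69.1 CPM under the Tfam f/f label, groups that did not overlap (log2 fold change -0.40, SE 0.14, edgeR adjusted p = 0.0508). Mrps36, whose protein is now placed in the 2-oxoglutarate dehydrogenase complex and not in the ribosome, had 32.2, 32.8 and 32.3 CPM under the KspCre Tfam f/f label against 31.0, 24.6 and 18.6 CPM under the Tfam f/f label (log2 fold change 0.39, SE 0.17, edgeR adjusted p = 0.0939). Mrps30, a protein that structures place in the large subunit in spite of its name, had 30.7, 31.3 and 27.3 CPM under the KspCre Tfam f/f label against 35.3, 28.5 and 30.8 CPM under the Tfam f/f label, and its groups overlapped (log2 fold change -0.08, SE 0.11, edgeR adjusted p = 0.57).

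The call threshold and the spread of the samples gave different counts. In 24 of the 73 genes all 3 KspCre Tfam f/f-labelled libraries were above all 3 labelled Tfam f/f, beside 29.8% of all genes, and in 13 they were all below, beside 32.1% of all genes. That is 50.7% of the 73 genes without overlap, beside 61.9% of all genes. The 23 called genes were all among these 37, and the other 14 were not called. At an unadjusted edgeR p under 0.05 there were 30 of the 73 genes (41.1%), beside 54.7% of all genes.

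The Tfam f/f-labelled libraries differed among themselves in a common way. Replicate 1 had the highest value of that group for 64 of the 73 genes, and replicate 3 the lowest for 53. The coefficient of variation had a median of 4.66% over the genes in the KspCre Tfam f/f-labelled libraries and 15.2% in the Tfam f/f-labelled libraries, and it was larger in the second group for 71 of the 73 genes. Calls also moved when a library was left out. Of the 23 calls, 14, 16 and 15 were lost without replicate 1, 2 or 3 labelled KspCre Tfam f/f, and 7, 2 and 4 without replicate 1, 2 or 3 labelled Tfam f/f. In all, 6 calls stood in every such fit (Mrpl50, Mrpl18, Mrps21, Mrpl16, Mrpl23 and Mrps10), 17 did not, and 18 genes that were not called gained a call in at least 1. The counts without replicate 1, 2 or 3 labelled KspCre Tfam f/f were 7, 4 and 6 genes higher and 2, 3 and 2 lower. Without replicate 1, 2 or 3 labelled Tfam f/f they were 24, 13 and 13 higher and 4, 11 and 10 lower. The shares of all genes called in these fits are not given here.

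The direction of the calls was set beside the gene's name series, Mrpl or Mrps, and beside the place of its protein. Of the 47 Mrpl genes 13 were higher and 4 lower, and of the 26 Mrps genes 2 were higher and 4 lower. Higher calls were 27.7% of the Mrpl and 7.69% of the Mrps genes, beside 21.3% of all genes. Lower calls were 8.51% of the Mrpl and 15.4% of the Mrps genes, beside 24.9% of all genes. By place, 13 of 48 large-subunit genes were higher and 4 lower, and 2 of 24 small-subunit genes were higher and 4 lower. The medians were close, at a log2 fold change of 0.06 for Mrpl and 0.09 for Mrps genes with TMM factors, and both were negative with total counts (-0.37 and -0.33). Of 44 genes with a bacterial counterpart 10 were higher and 5 lower, and of 27 without one 5 were higher and 3 lower. This grouping by descent was made after the values were seen. In the 44 genes that share no exon bases with another gene 9 were higher and 5 lower. No difference between these classes was tested.

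Levels per kilobase of exon spread over more than an order of magnitude. The highest were those of Mrpl12, at 104 CPM per kilobase in the KspCre Tfam f/f-labelled libraries and 73.5 in the Tfam f/f-labelled libraries, and of Mrps21, at 96.1 under the KspCre Tfam f/f label and 58.4 under the Tfam f/f label. Mrpl2, whose protein lies at the catalytic centre of the large subunit, was the third over the 6 libraries, at 45.3 under the KspCre Tfam f/f label and 47.1 under the Tfam f/f label, with overlapping groups. The lowest over the 6 libraries were Mrpl33, Mrps10 and Mrps30, at 1.38, 3.57 and 4.47 CPM per kilobase under the KspCre Tfam f/f label and 1.99, 5.18 and 4.73 under the Tfam f/f label. The median over the 73 genes was 18.9. These lengths are the union of all annotated exons, which lowers the level of genes with long, rarely used exons. That length also went with the direction of change: its median was 1876 bases in the genes called higher, 5166.5 in those called lower and 2402.5 in those not called, and Spearman's rho between length and log2 fold change was -0.35 over the 73 genes, which share the same 6 libraries. The part of length in the result was not tested.

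Summed over the 73 genes, the level overlapped between the groups with TMM factors, but not as a share of all gene counts. It was 3215, 3410 and 3236 CPM in the KspCre Tfam f/f-labelled libraries, and 3465, 2924 and 2667 CPM in the Tfam f/f-labelled libraries. The means were 3287 ± 107 CPM under the KspCre Tfam f/f label and 3019 ± 408 CPM under the Tfam f/f label (SD, n = 3 each), and the groups overlapped, since replicate 1 labelled Tfam f/f was the highest of the 6. As a share of all gene counts, without TMM factors, the order was the other way round, with a mean of 0.283% in the KspCre Tfam f/f-labelled libraries and 0.349% in the Tfam f/f-labelled libraries. The shares were 0.280%, 0.290% and 0.279% under the KspCre Tfam f/f label against 0.395%, 0.319% and 0.334% under the Tfam f/f label, without overlap.

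The RNAs that this ribosome reads and is built on differed far more than its protein genes. The 13 messenger RNAs of mitochondrial DNA summed to 126467, 128964 and 127967 CPM in the KspCre Tfam f/f-labelled libraries, and to 28494, 52057 and 19054 CPM in the Tfam f/f-labelled libraries, and 12 of them were higher at a median log2 fold change of 2.08 over the 13. For each CPM of the 73 ribosomal protein genes there were 39.3, 37.8 and 39.5 CPM of these messengers in the KspCre Tfam f/f-labelled libraries, and 8.22, 17.8 and 7.14 in the Tfam f/f-labelled libraries. The ratio was steady in the first group and varied widely in the second. Without replicate 1 labelled Tfam f/f 5 of the 13 messengers were called higher. The 2 mitochondrial ribosomal RNAs, of which poly A+ selection keeps an unknown part, summed to 2463, 2285 and 2143 CPM under the KspCre Tfam f/f label against 549, 850 and 324 CPM under the Tfam f/f label, and both were higher. Nuclear copies of mitochondrial DNA can take some of these reads into the class that aligns to several places. That part was not measured, so the levels are uncertain.

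The ribosomal protein genes of the cytosol went the other way. Of 83 such genes 78 were lower and 1 higher, at a median log2 fold change of -1.09, and they summed to 15997, 16788 and 16222 CPM in the KspCre Tfam f/f-labelled libraries, against 40439, 27498 and 38361 CPM in the Tfam f/f-labelled libraries. For each CPM of the mitochondrial set there were 4.98, 4.92 and 5.01 CPM of the cytosolic set in the KspCre Tfam f/f-labelled libraries and 11.7, 9.404 and 14.4 in the Tfam f/f-labelled libraries. Cytosolic ribosomal protein genes have many processed copies, so their counts are uncertain too. The groups did not overlap in either ratio.

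**Figure D3:**
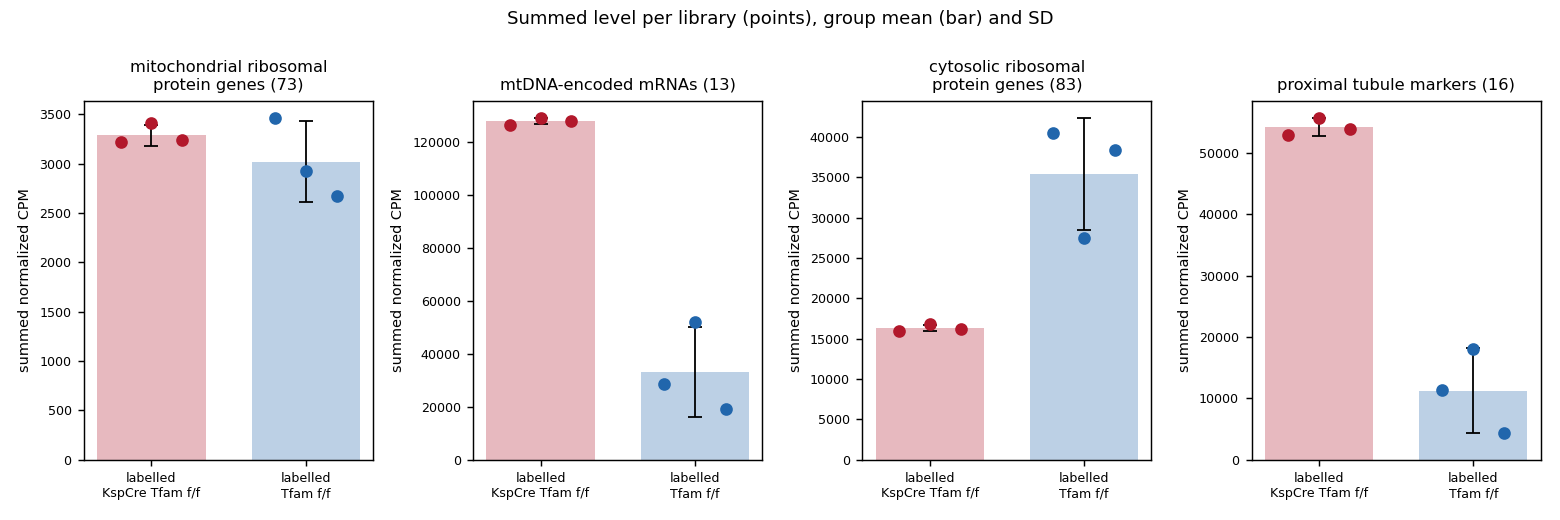
Summed normalized CPM per library (points), group mean (bar) and SD (n = 3) of the 73 mitochondrial ribosomal protein genes, the 13 mitochondrial messenger RNAs, the 83 cytosolic ribosomal protein genes and 16 proximal tubule markers, with the KspCre Tfam f/f-labelled libraries on the left of each panel. The groups overlap in the first panel, with 2667 to 3465 CPM over the 6 libraries, and are apart in the other panels. As a share of all gene counts, without TMM factors, the groups of the first panel do not overlap.

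**Figure D4:**
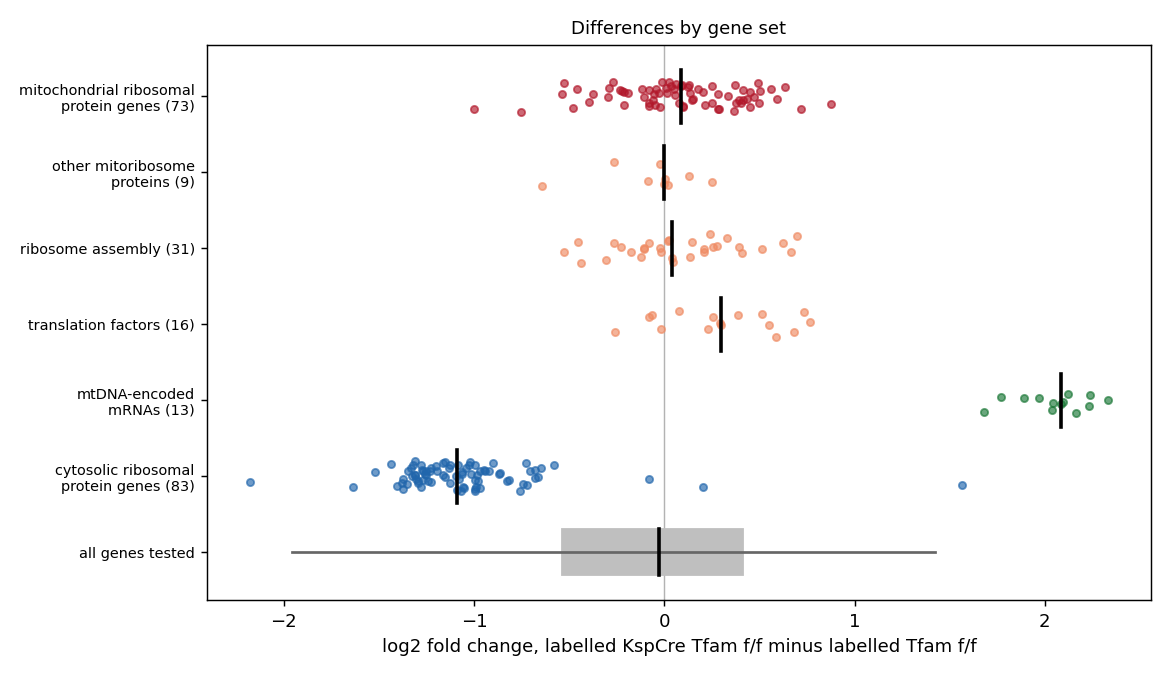
Log2 fold change (KspCre Tfam f/f-labelled minus Tfam f/f-labelled libraries, TMM scaling) of each gene (points) in 6 gene sets, with the set's median as a black line and the number of genes in brackets. The bottom row gives the median, the 25th to 75th percentile (box) and the 5th to 95th percentile (line) of all genes tested; the mitochondrial ribosomal protein genes, with a median of 0.09 that is -0.33 with total counts, lie between the mitochondrial messenger RNAs at 2.08 and the cytosolic ribosomal protein genes at -1.09.

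Other genes of mitochondrial translation were read from lists chosen with earlier results of these data known. Of 9 further proteins of the mitochondrial ribosome that were tested, 0 were higher and 1 lower, beside 3 at an unadjusted edgeR p under 0.05. Leaving out replicate 3 labelled Tfam f/f made this 2 lower, leaving out replicate 2 of that group gave 1 higher, and 6 were lower with total counts. The gene called was Mrps18b, a small-subunit protein that had 24.6, 28.2 and 25.03 CPM in the KspCre Tfam f/f-labelled libraries, against 40.3, 37.6 and 43.6 CPM in the Tfam f/f-labelled libraries (log2 fold change -0.64, edgeR adjusted p = 0.0026). Its groups did not overlap, and the call stood whichever library was left out.

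Of 31 genes that assemble the ribosome 5 were higher and 3 lower with TMM factors, against 0 higher and 16 lower with total counts. The counts were 3 higher and 0 lower without any 1 library labelled KspCre Tfam f/f, and 4 and 0, 7 and 4, and 4 and 2 without replicate 1, 2 or 3 labelled Tfam f/f. Spg7, a subunit of the inner-membrane protease that matures the Mrpl32 protein, had 112, 124 and 118 CPM in the KspCre Tfam f/f-labelled libraries, against 78.2, 83.8 and 56.4 CPM in the Tfam f/f-labelled libraries (log2 fold change 0.70, edgeR adjusted p = 0.00893). Grsf1, of the mitochondrial RNA granules, had 218, 214 and 210 CPM under the KspCre Tfam f/f label against 139, 157 and 108 CPM under the Tfam f/f label (log2 fold change 0.67). Fastkd2, which binds the large ribosomal RNA, had 35.4, 36.8 and 35.1 CPM under the KspCre Tfam f/f label against 19.8, 27.3 and 22.3 CPM under the Tfam f/f label (log2 fold change 0.63). None of these 3 had overlapping groups, and their calls stood whichever library was left out. Mtg2, a GTPase of large-subunit assembly, had a log2 fold change of 0.33, which was -0.10 with total counts, and its call was lost in 5 of the 6 fits that left out 1 library, all but the one without replicate 2 labelled Tfam f/f (adjusted p = 0.0615 to 0.135, over all alternatives 0.0113 to 0.472).

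Of 16 translation factors and related enzymes tested 7 were higher and 0 lower with TMM factors, against 2 higher and 3 lower with total counts, and 8 had an unadjusted edgeR p under 0.05. Without replicate 1, 2 or 3 labelled KspCre Tfam f/f 3, 4 and 3 were higher, and without replicate 2 labelled Tfam f/f 9 were higher and 1 lower. Gfm2, which with the recycling factor splits the ribosome after termination, had 84.5, 90.1 and 86.5 CPM in the KspCre Tfam f/f-labelled libraries, against 51.6, 58.1 and 44.0 CPM in the Tfam f/f-labelled libraries (log2 fold change 0.76, SE 0.11, edgeR adjusted p = 0.00225). Gfm1, the elongation factor that moves the ribosome along the messenger, had 171, 176 and 169 CPM under the KspCre Tfam f/f label against 109, 116 and 85.8 CPM under the Tfam f/f label (log2 fold change 0.73, SE 0.13, edgeR adjusted p = 0.00442). These 2 were the genes still called higher with total counts, and neither lost its call when 1 library was left out. Mtif3, an initiation factor, had 38.2, 41.6 and 39.5 CPM under the KspCre Tfam f/f label against 30.2, 28.7 and 22.4 CPM under the Tfam f/f label (log2 fold change 0.55). Mtfmt, which adds the formyl group to the initiator transfer RNA, had 22.01, 22.3 and 23.4 CPM under the KspCre Tfam f/f label against 17.3, 15.9 and 18.6 CPM under the Tfam f/f label (log2 fold change 0.38, and -0.05 with total counts). The call of Mtfmt was lost without any 1 library labelled KspCre Tfam f/f (adjusted p = 0.0545 to 0.0729, over all alternatives 0.00501 to 0.779). The set's median log2 fold change of 0.30 was above the 0.09 of the ribosomal protein genes, a difference that was not tested.

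Among the factors named for the promoter motifs, Gabpa, Myc and Nrf1 did not move as one, and values of Yy1 are not given here. Of 12 regulators of mitochondrial or ribosomal genes 3 were higher and 2 lower with TMM factors, against 0 higher and 6 lower with total counts. Without replicate 1, 2 or 3 labelled KspCre Tfam f/f 1, 2 and 1 were higher. Without replicate 1, 2 or 3 labelled Tfam f/f 1, 5 and 2 were higher, with 3 lower in the first of these fits. Gabpa, of the ETS factors whose core was in 21 of the 64 genes with a promoter, had 67.0, 58.9 and 67.4 CPM in the KspCre Tfam f/f-labelled libraries, against 40.1, 53.2 and 36.4 CPM in the Tfam f/f-labelled libraries (log2 fold change 0.57, edgeR adjusted p = 0.0165). Its groups did not overlap, and its call was lost without replicate 1 or 3 labelled KspCre Tfam f/f or replicate 1 labelled Tfam f/f (adjusted p = 0.0594 to 0.0662, over all alternatives 0.00157 to 0.317). Myc, which binds the E-box, had 4.67, 4.25 and 4.73 CPM under the KspCre Tfam f/f label against 47.8, 28.6 and 81.8 CPM under the Tfam f/f label (log2 fold change -3.53, SE 0.37, edgeR adjusted p = 0.000685). Pprc1, a coactivator related to PGC-1, had 17.6, 19.3 and 18.7 CPM under the KspCre Tfam f/f label against 26.9, 28.5 and 36.5 CPM under the Tfam f/f label (log2 fold change -0.72), and Tfb2m, which melts the mitochondrial promoter, had 47.4, 45.9 and 42.0 CPM under the KspCre Tfam f/f label against 27.4, 32.6 and 24.3 CPM under the Tfam f/f label (log2 fold change 0.68). Nrf1, which binds the palindrome, had 19.5, 19.5 and 18.2 CPM under the KspCre Tfam f/f label against 19.0, 18.5 and 23.3 CPM under the Tfam f/f label, with overlapping groups (log2 fold change -0.08, edgeR adjusted p = 0.59); it is named after its values were seen.

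Many of these genes share their start region with a neighbour. In GENCODE release M21, 23 of the 73 genes (31.5%) had a protein-coding gene on the opposite strand starting within 500 bases on either side. Among all protein-coding genes 1958 of 22028 (8.89%) had such a neighbour. Some of the 23 genes overlap their neighbour at the start, as Mrpl46 and Mrps11 do. Of the 23 genes 6 were called higher and 0 lower. Among their partners 4 were higher and 9 lower, and 10 of these 13 partners stood beside a ribosomal protein gene that was not called. Of all genes tested 21.3% were called higher and 24.9% lower, and whether genes or partners differ from these shares was not tested. The pairs below are named after their values were seen. Mrpl57 and Ska3, a gene of the mitotic spindle, start 49 bases apart, with log2 fold changes of 0.13 and -2.69. Mrpl27 and Eme1, which encodes part of a DNA repair nuclease, start 197 bases apart, with log2 fold changes of 0.20 and -2.16. In both pairs the partner was called and the ribosomal protein gene was not.

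One pair was called in opposite directions and 2 pairs in the same direction. Mrpl49 and Fau, which encodes a cytosolic ribosomal protein, start 59 bases apart. Fau had 134, 146 and 139 CPM in the KspCre Tfam f/f-labelled libraries, against 306, 199 and 283 CPM in the Tfam f/f-labelled libraries, so that its log2 fold change was -0.91 (edgeR adjusted p = 0.00536) where that of Mrpl49 was 0.56. Mrpl50 and Zfp189 start 83 bases apart and were both higher, with log2 fold changes of 0.88 and 0.54, as were Mrpl44 and Wdfy1, 125 bases apart, with 0.47 and 0.35. Of the exon bases of Mrpl44 7.66% lie opposite Wdfy1, so reads there are uncertain. Mrpl46 and Mrps11, the one pair made of 2 mitochondrial ribosomal protein genes, start 412 bases apart and had log2 fold changes of 0.10 and 0.06, neither of them called.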

How the data were processed

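RNA was measured in whole kidney in 3 libraries labelled KspCre Tfam f/f and 3 labelled Tfam f/f. Per the labels' protocols, libraries were strand-specific (dUTP) and poly A+ selected. The deposited values are raw counts per gene. Per the submitters' processing notes, the authors used STAR 2.4.1d and HTSeq 0.11.0, with FastQC and Trim Galore, on build mm10. Settings, annotation release and strand mode were not given in the sources used here. The 5 summary lines, 16.0% to 20.4% of all lines' counts, were left out. Reads aligned to several places are in no gene, which lowers genes with near-identical copies.

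The 73 genes and all lists were chosen with earlier results of these data known, and the motifs, neighbour pairs and classes by descent after the values were seen. The test was edgeR 4.0.16 under R 4.3.3 (filterByExpr with minimum count 10 and minimum total 15, TMM factors, robust glmQLFit, glmQLFTest). P-values were adjusted by Benjamini-Hochberg over 17308 genes and called below 0.05. The SE was derived from the F statistic. The procedure was tested on simulated counts, pooled over 5 draws, in each of which most changes of 1.5-fold and many of 2-fold went uncalled. No label says that each library is a different animal, and p-values here rest on the spread among libraries, possibly a technical one. Counts within a group varied beyond sampling noise (chi-square per degree of freedom of at least 7.09), so none was treated as a duplicate.

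Named are Tfam, up to 10 genes called in each direction by smallest p, the 3 uncalled with the largest change, the 3 highest and 3 lowest per kilobase, Mrps30, Mrps36, Mrpl12 and up to 4 called genes per other list. Alternatives were other scalings, low-count filters, DESeq2 1.42.0, limma 3.58.1 (voom), a minimum fold of 1.2, a replicate block and each library left out. Ranges of adjusted p over all alternatives do not include the test against a minimum fold, which kept fewer calls. Positions, exon lengths and overlaps are from GENCODE M21, where 68 of the 73 identifiers matched with their version; 29 of the 73 genes share exon bases with another gene, 6 of them on the same strand and 25 on the opposite one. Proteins of these genes were not analysed here.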

Additional observations from a re-analysis of the deposited data

How the results depend on the processing

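Tfam stayed higher in the KspCre Tfam f/f-labelled libraries under every alternative run. With total counts, which place the median of all genes at -0.46, 1 of the 73 genes was higher and 38 lower (all genes: 9.71% and 49.2%), and the median log2 fold changes were -0.33 (all 73), -0.33 (Mrps) and -0.37 (Mrpl), with a log2 ratio of summed levels of -0.30 in place of 0.12. Under it the other ribosome proteins had 6 lower, assembly genes 0 higher and 16 lower, translation factors 2 and 3, and regulators 0 and 6, and the log2 fold changes of Mrpl1 (-0.0101), Mrpl39 (-0.0904), Mtg2 (-0.0957) and Mtfmt (-0.0483) changed sign; the construction of that scaling moves every value by about -0.43. Against a minimum fold of 1.2, 5 of the 73 genes were higher and 2 lower, assembly genes 3 and 0, and 3 translation factors higher. With limma voom 0 assembly genes were lower (14 of the 73 genes higher, 6 lower), and DESeq2 called 14 and 7. The shares of all genes called against the minimum fold, with voom and with DESeq2 are not given here. Whether these counts are particular to the family was therefore not tested.

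No pairing of libraries by replicate number was seen: deviations of same-numbered libraries correlated at -0.17, -0.07 and -0.07, and none was closest to its own number. With 3 libraries a group, such correlations cannot exclude a pairing. With the number as a replicate block 11 of the 73 genes were higher and 4 lower, and 3 and 0 assembly genes. The share of all genes called in that fit is not given here either.

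Without 1 library each, 4 to 24 genes were higher and 2 to 11 lower, without the shares of all genes in these fits beside them. The ranges were 3 to 7 higher and 0 to 4 lower for assembly genes, 0 to 1 and 1 to 2 for other ribosome proteins, 3 to 9 and 0 to 1 for translation factors, 1 to 5 higher regulators and 5 to 13 higher mitochondrial messengers. Depth limited the 73 genes little: the lowest count of any in a library was 240.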
